A study of Homo sapiens with 12 samples.

Results

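The butyrate response of K562 cells lacking HRG1 was set against the butyrate response of K562 cells with HRG1 intact. K562 is an established human erythroleukaemia line that makes embryonic and fetal globins and some heme. HRG1, encoded by SLC48A1, is a membrane transporter that moves heme into the cytosol. The 4 groups were wild-type (WT) and HRG1-KO cells, each left untreated or given sodium butyrate, with 3 libraries per group numbered 1, 2 and 3 in the labels. Treated cells received 0.75 mM butyrate in 2 doses, the first 24 h after plating and the second 48 h later, and were harvested 6 h after the second. The series text gives day 8 for all groups and does not tie that day to these hours. The labels do not give the number of knockout clones, so an effect of the deletion and a trait of a clone cannot be told apart. They do not say that replicates were separate cultures either, so p-values measure the spread between these libraries, which may be technical. The difference taken was the response in HRG1-KO (butyrate minus untreated) minus the response in WT, with the replicate number as a block. It used all 12 libraries of the series and was tested for 15805 of the 28278 genes in the table. It is called the interaction here, in log2 units, and a positive value means a larger rise or a smaller fall in HRG1-KO.

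Sodium butyrate is a short-chain fatty acid that inhibits histone deacetylases, and in K562 cells it is a long-used inducer of globin and other erythroid genes. Deacetylase inhibitors also switch on genes that are silent in the lineage, and they slow proliferation. A gene can respond alike in both genotypes, respond in one, or respond in opposite directions, and the interaction is the quantity that separates these cases.

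The check of the label came from SLC48A1 itself. Its level in CPM (counts scaled to library size, with TMM factors) was 65.4 to 82.2 in untreated WT, 58.9 to 83.8 in treated WT, 2.94 to 8.32 in untreated HRG1-KO and 6.02 to 10.1 in treated HRG1-KO. The 6 knockout libraries lay below the 6 WT libraries. Butyrate did not pass the test for SLC48A1 in either genotype, and its interaction was 0.55 ± 0.43 (SE; 95% interval -0.38 to 1.49). Library totals were 19963594 to 30348538 counts, and 3 counts in a library corresponded to 0.0953 to 0.162 CPM. All 10 erythroid marker genes were above 1 CPM in every library. So were 2 of 7 megakaryocyte, 3 of 8 myeloid, 1 of 6 lymphoid and 2 of 8 stromal and epithelial markers. On these lists only PF4 (megakaryocyte), MS4A1 (B cell) and CDH5 (endothelium) had no counts in any library. Libraries numbered 1 stood apart in some of the results below, and the ribosomal RNA gene RNA28SN5 took 2.3 to 5.63% of their counts, against 0.673 to 2.86% in the others.

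Most of the 2 responses ran in the same direction. Butyrate changed 1361 genes in WT (8.61% of those tested), of which 864 rose (5.47%) and 497 fell (3.14%). In HRG1-KO it changed 1852 genes (11.7%), 1232 up (7.8%) and 620 down (3.92%), by edgeR's quasi-likelihood test with Benjamini-Hochberg adjusted p under 0.05. The WT count was 425 and 836 without replicates 2 and 3 of untreated WT, and 376 and 527 without those of treated WT. The HRG1-KO count was 401 and 814 without replicates 2 and 3 of untreated HRG1-KO, and 534 and 1023 without those of treated HRG1-KO. Of the genes that rose in WT, 834 (96.5%) also had a positive change in HRG1-KO, with a median log2 change of 1.98 in WT and 1.48 in HRG1-KO. Of those that fell in WT, 463 (93.2%) were also negative in HRG1-KO, with medians of -0.83 and -0.61. Read the other way, 1135 of the genes that rose in HRG1-KO (92.1%) were positive in WT, with medians of 2.25 in HRG1-KO and 1.29 in WT. Genes are picked here by one response, so a smaller median in the other genotype follows in part from the choice. Over all 15805 genes the 2 responses, which share no library, correlated with a Pearson coefficient of 0.59 and a Spearman coefficient of 0.60. By replicate number, the Pearson coefficient was 0.35 for number 1, 0.62 for number 2 and 0.60 for number 3. The points are genes of the same libraries, not independent replicates.

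**Figure D1:**
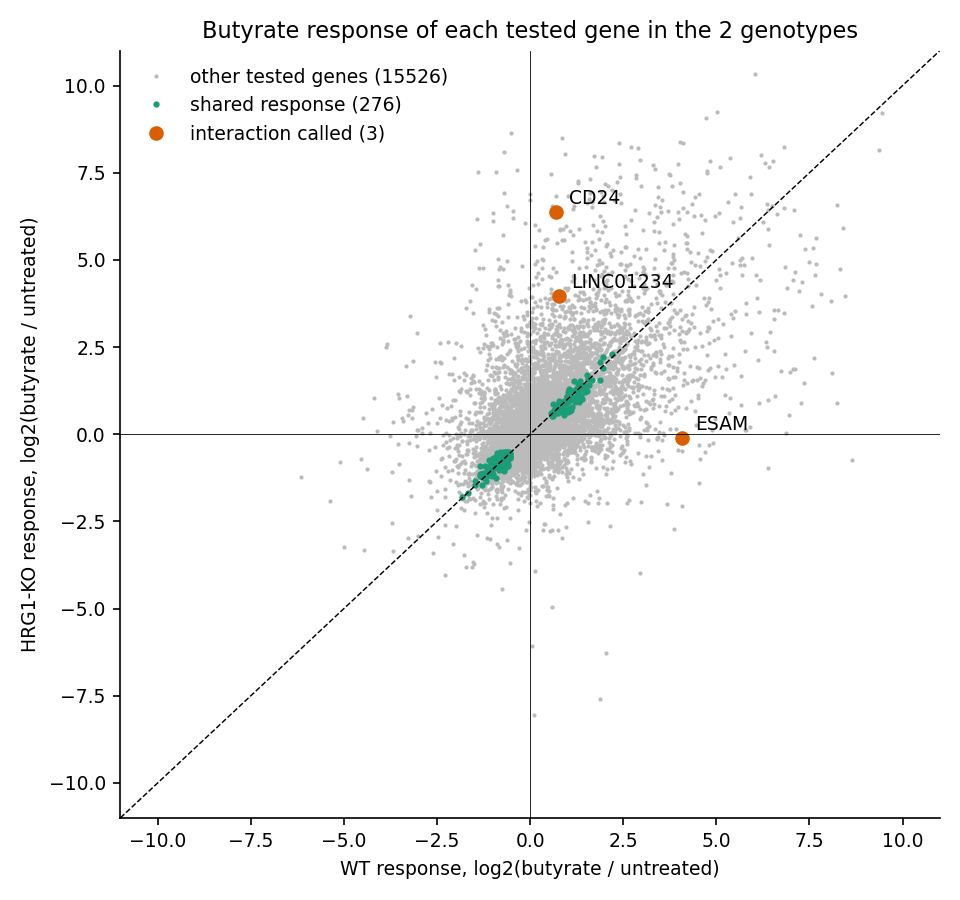
Each point is 1 tested gene, with its log2 butyrate response in WT on the x axis and in HRG1-KO on the y axis; the dashed line marks equal responses. The 276 genes with a shared response lie along the line, and LINC01234, CD24 and ESAM, the 3 genes whose interaction passed the test, lie far from it.

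A gene passed the test in both genotypes in 718 cases, which is 52.8% of the WT calls and 38.8% of the HRG1-KO calls. Of these, 715 had the same sign, 493 rising and 222 falling. The other 3, ARHGDIB, GP6 and SULT1A1, fell in WT and rose in HRG1-KO. A further 643 genes were called in WT alone and 1134 in HRG1-KO alone, but being called in 1 genotype does not show a difference. The interaction itself had an unadjusted p under 0.05 in 221 of the genes called in WT alone and passed the adjusted threshold in 1. For the genes called in HRG1-KO alone these counts were 364 and 2. Over all tested genes that unadjusted p was under 0.05 for a higher response in HRG1-KO in 4.47% and a lower one in 2.59%. Genes called in 1 genotype alone are picked by the responses that form the interaction, so more small p-values follow in part from this choice.

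Only 3 genes passed the adjusted threshold for the interaction (0.019% of those tested), namely LINC01234, CD24 and ESAM. At an unadjusted p under 0.05 there were 706 genes with a higher response in HRG1-KO (4.47%) and 409 with a lower one (2.59%). The count of 3 depended on the model. It was 0 without the replicate block (658 genes at an unadjusted p under 0.05), 12 with a block within each genotype, 211 by DESeq2 and 1 by limma-voom. Left out one at a time, replicate 3 of untreated HRG1-KO and replicate 1 of treated HRG1-KO gave 21 and 22 calls. Replicates 1 and 3 of untreated WT gave 5 and 16, and replicate 1 of treated WT gave 10. LINC01234 and ESAM, but not CD24, were called whichever of the 12 libraries was left out.

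LINC01234 is an intergenic long noncoding RNA at chr12:113744577-113773683. It was at 25.7, 32.6 and 24.6 CPM in untreated WT (numbers 1 to 3) and 42.2, 46.9 and 49.2 CPM with butyrate. In HRG1-KO it went from 1.66, 1.95 and 1.3 CPM to 21.8, 38.9 and 17.8 CPM. The knockout started far below WT, and its treated libraries overlapped the untreated WT libraries. The log2 response was 0.77 in WT (adjusted p = 0.0508) and 3.96 in HRG1-KO (adjusted p = 4.04e-05). The interaction was 3.19 ± 0.33 (SE), with a 95% interval of 2.48 to 3.91 and an adjusted p of 0.00456.

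CD24 encodes a small GPI-anchored sialoglycoprotein of the blood cell surface and lies at chr6:106969831-106976855. It had 30.7, 28.4 and 38.1 CPM in untreated WT and 33.1, 53.3 and 91.7 CPM in treated WT. In untreated HRG1-KO only 0, 0 and 4 counts were found, and treated HRG1-KO had 37, 149 and 252 counts (1.7, 4.92 and 8.12 CPM). The gene was thus near the detection limit in the untreated knockout, and the treated knockout stayed below every WT library. The fitted interaction of 5.66 ± 0.98 (adjusted p = 0.0236) depends on how the model handles those near-zero counts. It was called for 5 of the 12 choices of a left-out library. The call was lost without number 2 of any group, number 3 of either treated group or number 1 of untreated HRG1-KO (adjusted p up to 0.0939). CD24 has near-identical pseudogene copies, among which the counting could have split reads.

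ESAM encodes an immunoglobulin-family adhesion protein of endothelial cells, platelets and blood stem cells, at chr11:124753126-124762290. It was at 0.162, 0.278 and 1.04 CPM in untreated WT and rose to 3.06, 13.1 and 11.6 CPM. In HRG1-KO it was already at 57.1, 164 and 142 CPM untreated and stood at 58, 144 and 122 CPM with butyrate. Every knockout library was above every WT library, and butyrate raised the gene in WT without closing the gap. The log2 response was 4.09 in WT (adjusted p = 0.000176) and -0.12 in HRG1-KO (adjusted p = 0.808), an interaction of -4.21 ± 0.46 with a 95% interval of -5.21 to -3.21 and an adjusted p of 0.00456. For each of the 3 called genes the 3 per-number responses of one genotype lay above those of the other. Such an order has an exact two-sided permutation p of 0.1, the smallest that 3 against 3 allows.

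**Figure D2:**
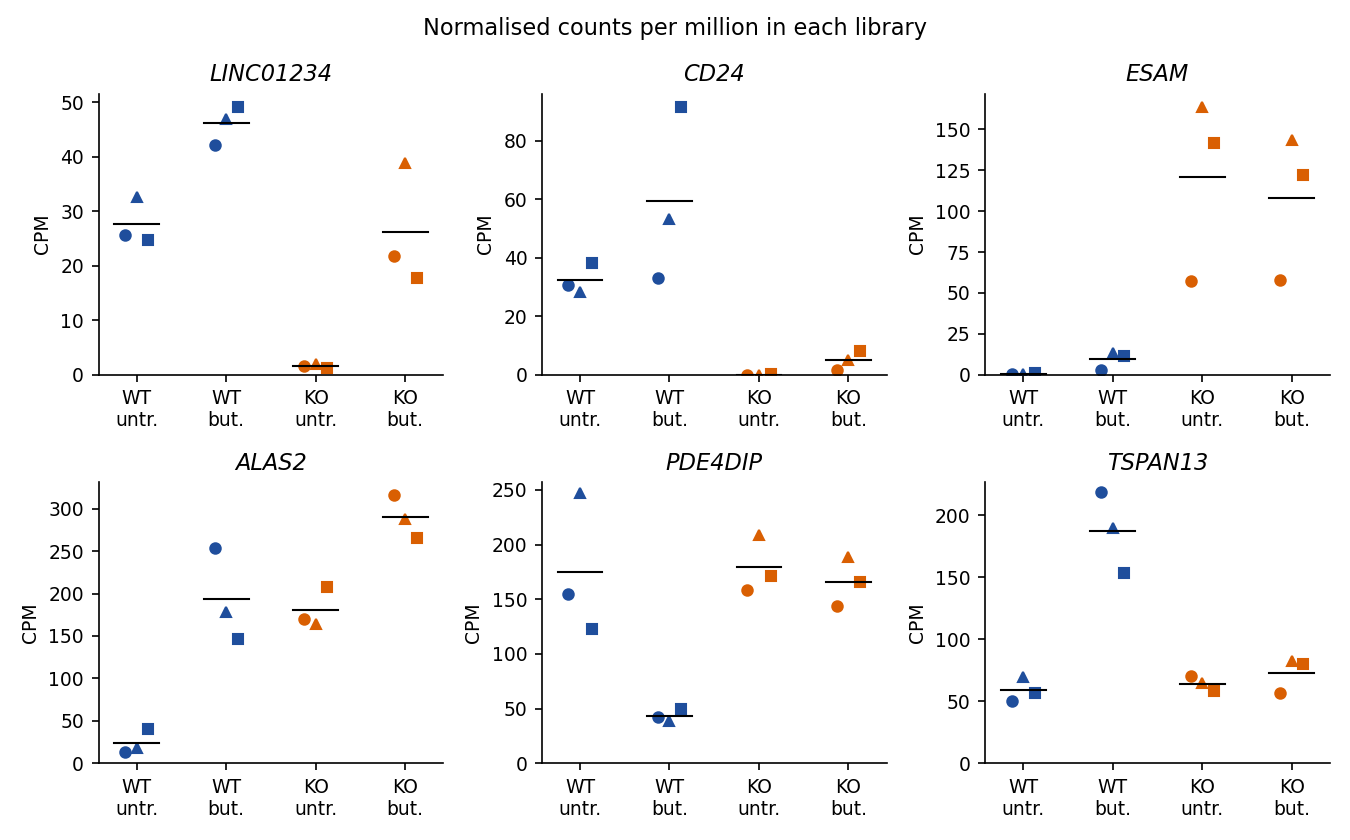
Each panel gives the TMM-scaled CPM of 1 gene in the 12 libraries (WT in blue, HRG1-KO in orange, circles, triangles and squares for replicate numbers 1, 2 and 3, a line at the group mean), on a linear axis from 0. ESAM and ALAS2 rise in WT from a low level and start high in HRG1-KO, whereas PDE4DIP and TSPAN13 start alike in both genotypes and change in WT alone.

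Per-number responses did not overlap between genotypes for 1132 genes with a higher response in HRG1-KO (7.16%) and for 1011 with a lower one (6.4%). Of the 10 such genes with the smallest p in each direction, 9 of those with a higher response were lower in untreated HRG1-KO than in untreated WT. Of the 10 with a lower response, 9 were higher in untreated HRG1-KO. The untreated libraries enter both quantities, so this is a description and no independent result. Apart from the 3 called genes, adjusted p ran up to 0.0814 among those with a higher response and up to 0.104 among those with a lower one.

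Some of these genes rose in the knockout from below the untreated WT level. RBM20, a splicing regulator, was at 36.7, 41.2 and 32 CPM in untreated WT and 41.3, 44.3 and 36.6 CPM in treated WT. In HRG1-KO it went from 2.52, 1.71 and 3.11 CPM to 13.6, 10.8 and 10.1 CPM, with an interaction of 2.06 ± 0.34 (adjusted p = 0.0814 by edgeR). All treated knockout libraries exceeded all untreated ones and stayed below WT. DGAT2, which makes triacylglycerol, rose in both genotypes and further in HRG1-KO. Its mean went from 6.14 to 18.5 CPM in WT and from 2.62 to 34.1 CPM in HRG1-KO, and the interaction was 2.10 ± 0.35 (adjusted p = 0.0814). ANPEP, a cell-surface aminopeptidase of myeloid cells, went from a mean of 36.7 to 22.3 CPM in WT, which did not pass the test, and rose from 4.47 to 25.5 CPM in HRG1-KO (interaction 3.33 ± 0.50, adjusted p = 0.0814). In treated cells its level was thus similar in the 2 genotypes.

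PDE4DIP, a centrosome and Golgi scaffold protein, was the member of this group whose untreated levels were alike. It was at 155, 247 and 123 CPM in untreated WT and 42.5, 38.8 and 49.5 CPM in treated WT. In HRG1-KO it was at 158, 209 and 172 CPM untreated and 143, 189 and 166 CPM treated. PDE4DIP fell in WT by 1.95 on the log2 scale (adjusted p = 0.000702), and in HRG1-KO its change of -0.11 did not pass (adjusted p = 0.77). The interaction was 1.84, with an interval of 1.20 to 2.48. PCDH1, ARHGDIB, MARCKS and CACNA1I completed the 10, and all of them had 3 counts or fewer in every untreated knockout library, so no fold is given. PCDH1, a protocadherin, had 1 count in each of those libraries and 77, 266 and 100 counts after butyrate. ARHGDIB, a regulator of small GTPases in blood cells, fell from 62.6, 49.8 and 31.2 to 19.2, 18.6 and 17.1 CPM in WT. In HRG1-KO it was called as a rise on 1, 2 and 3 counts against 9, 22 and 9, at the edge of detection.

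Among the genes with a lower response in HRG1-KO, ALAS2 encodes the erythroid form of the enzyme that starts heme synthesis. It was at 13.4, 18.5 and 40.2 CPM in untreated WT and 254, 179 and 147 CPM in treated WT. In HRG1-KO it was at 171, 164 and 207 CPM before and 316, 288 and 266 CPM after butyrate. The treated WT range of 147 to 254 CPM thus overlapped the untreated knockout range. The log2 response was 3.07 in WT (adjusted p = 0.000933) and 0.70 in HRG1-KO (adjusted p = 0.171), with an interaction of -2.37 ± 0.45 (adjusted p = 0.0948).

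TSPAN13, a tetraspanin, was the counterpart of PDE4DIP in this direction. Its untreated levels were 50 to 69.5 CPM in WT and 57.9 to 70.3 CPM in HRG1-KO, and its treated levels were 154 to 219 CPM and 56.5 to 82.1 CPM. The rise was seen in WT alone (log2 1.68, adjusted p = 0.00103), and the interaction was -1.50 ± 0.27 (adjusted p = 0.0884). ARID5B, a DNA-binding transcription regulator, rose in WT from 1.63 to 12.7 CPM, while its HRG1-KO means were 27.8 and 38.4 CPM (interaction -2.51 ± 0.45). The same order held for the matrix glycoprotein genes EMILIN2 and RELN, whose interactions were -2.45 ± 0.47 and -2.47 ± 0.49. NPDC1 rose in both genotypes, by 4.36 in WT and by 1.52 in HRG1-KO. LINC02022 also rose in both, from 0, 0 and 1 counts in untreated WT.

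RCN1, a calcium-binding protein of the endoplasmic reticulum, moved the other way round. It fell in HRG1-KO from 38.4, 48.3 and 64.4 CPM to 13, 12 and 13.5 CPM, and it had at most 11 counts in any WT library. TRPV6, an epithelial calcium channel, had 0 counts in all 3 treated knockout libraries and 14, 5 and 8 counts in the untreated ones, while WT went from a mean of 1.04 to 5 CPM. GP6, the collagen receptor of platelets, was 1 of the 3 genes called with opposite signs. It was at 403, 165 and 154 CPM in untreated WT and 299, 111 and 68.6 CPM in treated WT, and it went from 93.1, 47.1 and 29.1 to 146, 100 and 54.8 CPM in HRG1-KO. Within each replicate number it fell in WT and rose in HRG1-KO (interaction 1.62 ± 0.28, adjusted p = 0.0815). The GP6 counts of all 12 libraries end in 0, from 870 in untreated HRG1-KO to 7450 in untreated WT. The reason was not tested, so the levels and the p-value of GP6 are uncertain. SULT1A1, a sulfotransferase with close paralogs, had WT means of 48.5 and 26.4 CPM and HRG1-KO means of 1.3 and 3.04 CPM.

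Across gene families, the replication-dependent histone genes differed in the same direction in most members. These genes supply the core and linker histones that package new DNA in S phase, and their messages end in a stem-loop in place of a poly(A) tail. Of 44 tested genes (66 in the table), 20 rose in WT (45.5%, against 5.47% of all genes) and 0 rose or fell in HRG1-KO. In HRG1-KO 0 members had an unadjusted p under 0.05 by edgeR, and DESeq2 and limma-voom also called 0. The median log2 response was 1.42 in WT and 0.28 in HRG1-KO, against a median near 0 in each over all tested genes. The interaction was negative for 41 of the 44, with a median of -1.16 (-1.07 when values under the detection limit take that limit) against -0.01 over all tested genes. In 21 of them (0 in the other direction) its unadjusted p was under 0.05, where 2.59% of all genes were that low, and 0 passed after adjustment over all genes by edgeR, against 1 by DESeq2 and 0 by limma-voom.

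H1-2, a linker histone, was at 234, 168 and 239 CPM in untreated WT and 514, 971 and 753 CPM in treated WT, and at 476, 315 and 420 CPM and then 381, 244 and 592 CPM in HRG1-KO. The treated WT libraries were above the untreated ones without overlap, and the knockout groups overlapped. Its response was 1.85 in WT (adjusted p = 0.00419) and -0.04 in HRG1-KO, with an interaction of -1.88 ± 0.41 (adjusted p = 0.141). H2BC12, a core histone H2B gene, was at 486, 240 and 256 CPM in untreated WT and 857, 664 and 511 CPM in treated WT. In HRG1-KO it was at 1157, 850 and 507 CPM untreated and 950, 759 and 768 CPM treated. The untreated knockout libraries were at about the treated WT level for H2BC12, and the interaction was -1.03 ± 0.28. H2AC6 (interaction -1.44 ± 0.42) and H4C12 (-1.41 ± 0.45) rose in WT, and their changes in HRG1-KO did not pass the test. All classes shared the sign. The median interaction was -0.33 over 5 H1 genes, -1.30 over 11 H2A, -1.04 over 13 H2B, -0.95 over 7 H3 and -1.31 over 8 H4 genes.

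**Figure D3:**
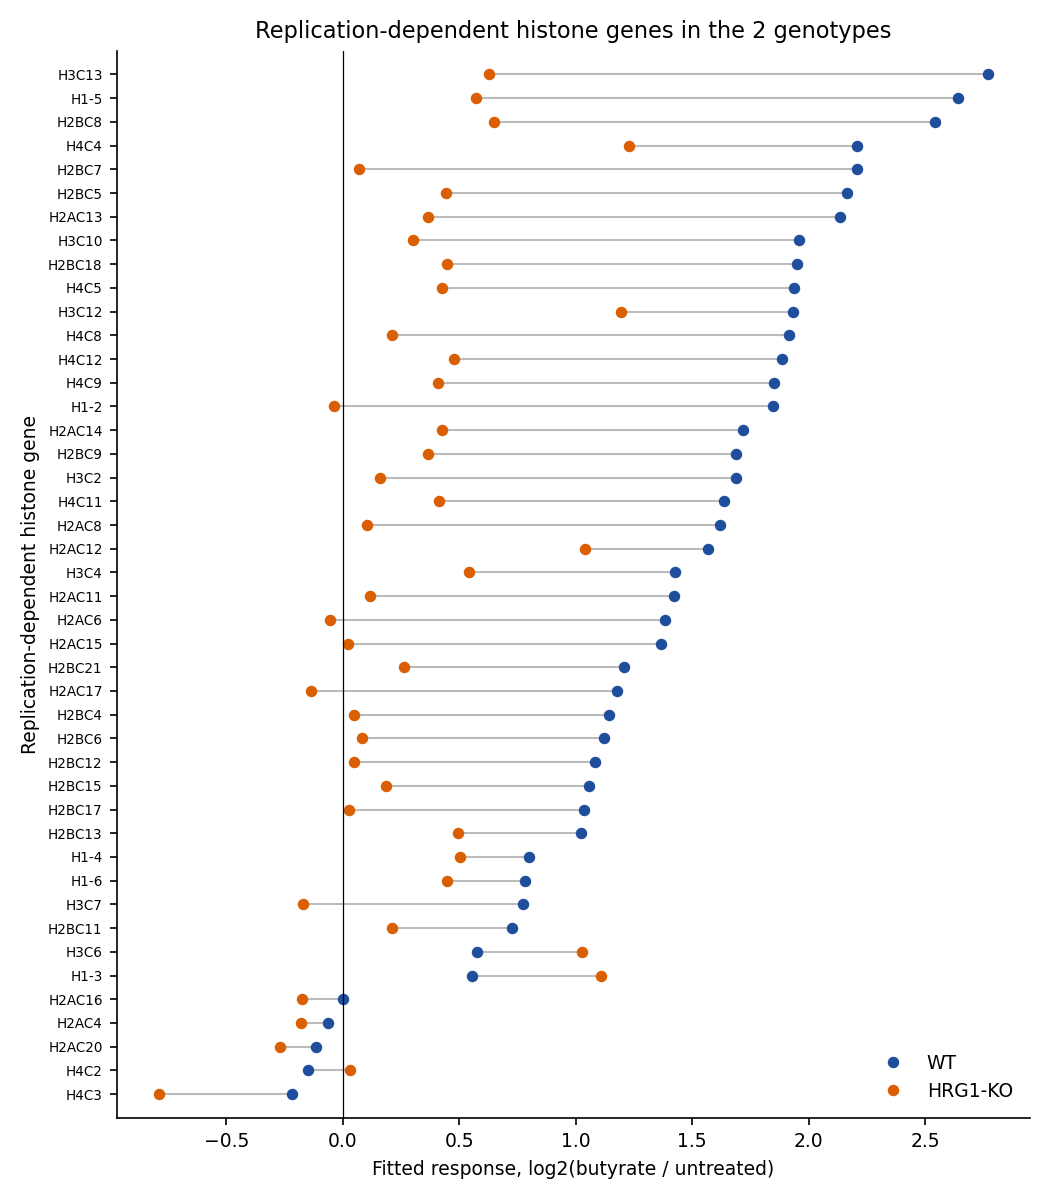
Fitted log2 butyrate response of the 44 tested replication-dependent histone genes in WT (blue) and HRG1-KO (orange), ordered by the WT response, with a grey line joining the 2 values of a gene. The WT value lies to the right of the HRG1-KO value for 41 genes.

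The 250 bases before the start of LINC01234 and of 4 of these histone genes are shown, because LINC01234 passed the interaction test and these histone genes, which did not, had negative interactions in common (RefSeq, GRCh38.p14). Capitals mark each match, on either strand, to 4 short motifs. The CAAT box reads CCAAT, the core promoter box of the TATA-binding protein reads TATAAA, the GC box of SP1-type factors reads GGGCGG and the site of GATA factors reads AGATAA. Where matches of 2 motifs or strands overlap, the capitals run together.
LINC01234, chr12:113773684-113773933, minus strand: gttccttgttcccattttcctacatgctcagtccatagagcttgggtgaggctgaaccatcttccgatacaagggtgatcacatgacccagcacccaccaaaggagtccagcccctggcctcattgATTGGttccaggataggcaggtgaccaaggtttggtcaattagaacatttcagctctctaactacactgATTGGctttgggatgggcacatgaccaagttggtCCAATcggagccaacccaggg
H1-2, chr6:26056471-26056720, minus strand: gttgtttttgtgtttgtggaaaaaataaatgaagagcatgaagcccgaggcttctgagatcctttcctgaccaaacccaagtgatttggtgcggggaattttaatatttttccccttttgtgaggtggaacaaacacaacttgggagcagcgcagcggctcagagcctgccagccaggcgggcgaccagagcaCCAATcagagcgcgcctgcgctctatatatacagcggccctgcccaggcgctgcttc
H2AC6, chr6:26123922-26124171, plus strand: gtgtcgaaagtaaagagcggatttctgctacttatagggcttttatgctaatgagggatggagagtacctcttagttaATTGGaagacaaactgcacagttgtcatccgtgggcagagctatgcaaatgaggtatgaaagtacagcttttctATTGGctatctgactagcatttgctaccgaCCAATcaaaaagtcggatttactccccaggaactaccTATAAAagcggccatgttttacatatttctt
H2BC12, chr6:27146859-27147108, minus strand: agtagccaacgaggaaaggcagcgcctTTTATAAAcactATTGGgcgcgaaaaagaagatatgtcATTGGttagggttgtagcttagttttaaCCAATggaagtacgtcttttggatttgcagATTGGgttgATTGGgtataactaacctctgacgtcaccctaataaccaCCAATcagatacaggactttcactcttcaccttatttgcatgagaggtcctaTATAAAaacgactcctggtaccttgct
H4C12, chr6:27831561-27831810, minus strand: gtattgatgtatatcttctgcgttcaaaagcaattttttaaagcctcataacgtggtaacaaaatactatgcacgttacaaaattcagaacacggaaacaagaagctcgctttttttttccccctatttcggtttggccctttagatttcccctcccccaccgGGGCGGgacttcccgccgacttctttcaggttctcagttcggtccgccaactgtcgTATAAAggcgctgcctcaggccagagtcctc
A CAAT box match was present in 35 of the 41 tested histone genes with an entry (85.4%) and in 33% of all 27305 promoters of the same length. For the TATA box these shares were 68.3% and 11.1%. The GC box was found in 24.4% of the histone windows and 42.3% of all, and the GATA letters in 2.44% and 9.37%. Of the 41 windows, 16 overlap the window of another listed gene, so they are not independent. LINC01234 held 3 CAAT box matches and no match to the other motifs.

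The sign of the median histone interaction was the same in each replicate number. The median interaction was -0.68 in number 1, -1.63 in number 2 and -0.98 in number 3. The WT median was 0.20 in number 1, 1.73 in number 2 and 1.84 in number 3, and the HRG1-KO median was -0.29, 0.20 and 0.91 in the same order. Without the libraries numbered 1, 30 members rose in WT and 4 in HRG1-KO, and the median interaction was -1.40. Leaving out any 1 library gave -1.46 to -0.82. Whether RNA was selected by poly(A) or by ribosomal depletion is not given in the sources used here. RNA28SN5 took 0.847 to 5.63% of counts in treated WT and 0.673 to 2.3% in treated HRG1-KO. In the untreated groups it took 0.93 to 4.69% in WT and 0.699 to 3.36% in HRG1-KO. The part of RNA selection in the histone values was not tested. Histone genes are also close copies of each other, and reads could have been split between them.

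Other genes of the cell cycle had median interactions nearer 0. The DNA replication machinery (40 genes, such as polymerases and MCM helicase subunits) had a median interaction of -0.01. The 95% interval lay within ±1 for 38 of them, against 41.4% of all genes. That share also depends on interval width, with a median of 1.61 over all genes, and genes were not matched for expression. The 9 tested variant histone genes, which are made outside S phase, had a median of 0.05. Of 30 mitosis and spindle genes, 2 fell in WT and 9 in HRG1-KO, where 3.14% and 3.92% of all genes fell. Their median responses were -0.22 and -0.46, with a median interaction of -0.23. It was negative for 27 of the 30, with medians of -0.30, -0.31 and -0.13 by replicate number. Without the libraries numbered 1 there were 5 falls in WT and 13 in HRG1-KO. CDK1, the mitotic kinase, was at 258 to 272 CPM in untreated WT and 288 to 324 CPM in treated WT, and at 206 to 254 and then 163 to 187 CPM in HRG1-KO (interaction -0.58 ± 0.21, adjusted p = 0.48). AURKA and MAD2L1, which act at the spindle, fell in both genotypes. CDKN1A, the p21 inhibitor of cyclin-dependent kinases, went from 14.4, 31.5 and 21.9 to 26, 63.5 and 50.7 CPM in WT, which missed the threshold (adjusted p = 0.0517). It rose in HRG1-KO from 1.44, 2.52 and 3.38 to 6.11, 37.1 and 24.9 CPM, and its interaction was 2.00 ± 0.43 (adjusted p = 0.133). The knockout groups did not overlap, and the treated knockout libraries numbered 2 and 3 lay within or above the untreated WT range.

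Erythroid genes had negative median interactions in several lists, and here the replicate numbers disagreed. In bulk RNA, a smaller share of induced cells and less RNA per cell cannot be told apart. Globin genes carry the oxygen-binding chains. Of the 8 tested, 7 rose in WT and 2 in HRG1-KO, where 5.47% and 7.8% of all genes rose. Without the libraries numbered 1, 6 globins rose in WT and 3 in HRG1-KO. Median responses were 1.94 and 0.62, and the interaction was negative for 7 of 8 with a median of -1.11. Its unadjusted p was under 0.05 in 6 of them (2.59% of all genes) and, in the other direction, in HBE1 (4.47% of all genes). After adjustment edgeR and limma-voom called 0. DESeq2 called 1, namely HBE1, whose interaction was positive (adjusted p = 0.0147 by DESeq2), and 0 with a negative interaction. By replicate number the median interaction was -1.82, -1.56 and 0.32, so number 3 had the opposite sign. HBZ, the embryonic zeta chain, went from 483.1, 201.1 and 246.4 CPM to 7552.7, 1256.2 and 341.6 CPM in WT, and from 716.4, 425.0 and 223.1 to 1108.4, 581.6 and 498.5 CPM in HRG1-KO. The WT log2 response ran from 3.97 in number 1 to 0.47 in number 3. HBG2, a fetal gamma chain, had group means of 5354.7 and 13656.5 CPM in WT and 1389.8 and 1888.6 CPM in HRG1-KO (interaction -0.91 ± 0.33). HBA1 and HBA2, and HBG1 and HBG2, are near-identical pairs whose reads the counting could split.

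HBE1, the embryonic epsilon chain, was the exception. It rose from 5648.7, 2272.9 and 5121.1 to 23163.5, 13909.1 and 10303.7 CPM in WT. In HRG1-KO it rose from 26.3, 17.9 and 7.36 to 418.9, 221.6 and 92.0 CPM. The knockout stayed far below WT in every library, but its log2 response was the larger one, 3.77 against 1.73 (interaction 2.04 ± 0.54, adjusted p = 0.25 by edgeR).

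Membrane and blood group genes of the red cell gave 10 rises among 25 in WT and 7 in HRG1-KO, where 5.47% and 7.8% of all genes rose, with a median interaction of -0.53. Without the libraries numbered 1 the rises were 11 and 9, and 2 genes fell in each genotype. The unadjusted p of the interaction was under 0.05 in 7 of them, all with a negative interaction (2.59% of all genes), among them GYPB, GYPE, XK, RHCE, KEL and SPTB. GYPB, a glycophorin, went from 6.72, 18.4 and 14.9 to 68.5, 76.5 and 50.1 CPM in WT. In HRG1-KO it was at 185, 114 and 163 CPM untreated and 210, 185 and 168 CPM treated (interaction -2.01 ± 0.44, adjusted p = 0.141). As for ESAM, the treated WT libraries stayed below the untreated knockout libraries for GYPB. The median over the list was -1.13 in number 1, -0.18 in number 2 and -0.17 in number 3, and it was -0.15 without the libraries numbered 1. KEL, a blood group metalloprotease, did not differ in that way. Its untreated levels were 89.7 to 121 CPM in WT and 104 to 156 CPM in HRG1-KO, and only WT rose (interaction -0.86 ± 0.23, adjusted p = 0.25). SLC4A1, the anion exchanger band 3, rose in both genotypes, from 1.03 to 31 CPM in WT and from 1.72 to 18.3 CPM in HRG1-KO.

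Of 13 heme synthesis genes, 5 rose and 1 fell in WT and 4 rose in HRG1-KO. Over all genes, 5.47% rose and 3.14% fell in WT and 7.8% rose in HRG1-KO. The list had a median interaction of -0.33 that was 0.09 in number 3. Without the libraries numbered 1 the median was -0.05, and 3 genes fell in HRG1-KO. UROS, an enzyme of the pathway, and SLC25A37, the iron importer mitoferrin, rose alike in the 2 genotypes, with intervals of -0.89 to 0.33 and -0.98 to 0.33. Erythroid transcription factors had a median interaction of 0.02 over 18 genes. TFR2, an iron-sensing receptor of erythroid cells, was the only one of 16 iron-handling genes whose interaction had an unadjusted p under 0.05. Over all genes 4.47% had such a p with a higher response in HRG1-KO and 2.59% with a lower one. A count of 1 of 16 therefore does not set the list apart. TFR2 was at 186 to 202 CPM in untreated WT and 159 to 249 CPM in treated WT. It rose in HRG1-KO from 4.28, 6.37 and 16.5 to 29.4, 27.1 and 32.6 CPM (interaction 1.75 ± 0.49, adjusted p = 0.283). The summed CPM of the 10 erythroid markers was 8071 to 17656 in untreated WT, 26233 to 56779 in treated WT, 3372 to 6049 in untreated HRG1-KO and 4244 to 6173 in treated HRG1-KO. They include HBG1, HBG2 and HBE1, with untreated means of 2983.5, 5354.7 and 4347.6 CPM in WT and 652.3, 1389.8 and 17.2 CPM in HRG1-KO. The sum is weighted to these globins and does not describe the other markers.

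**Figure D4:**
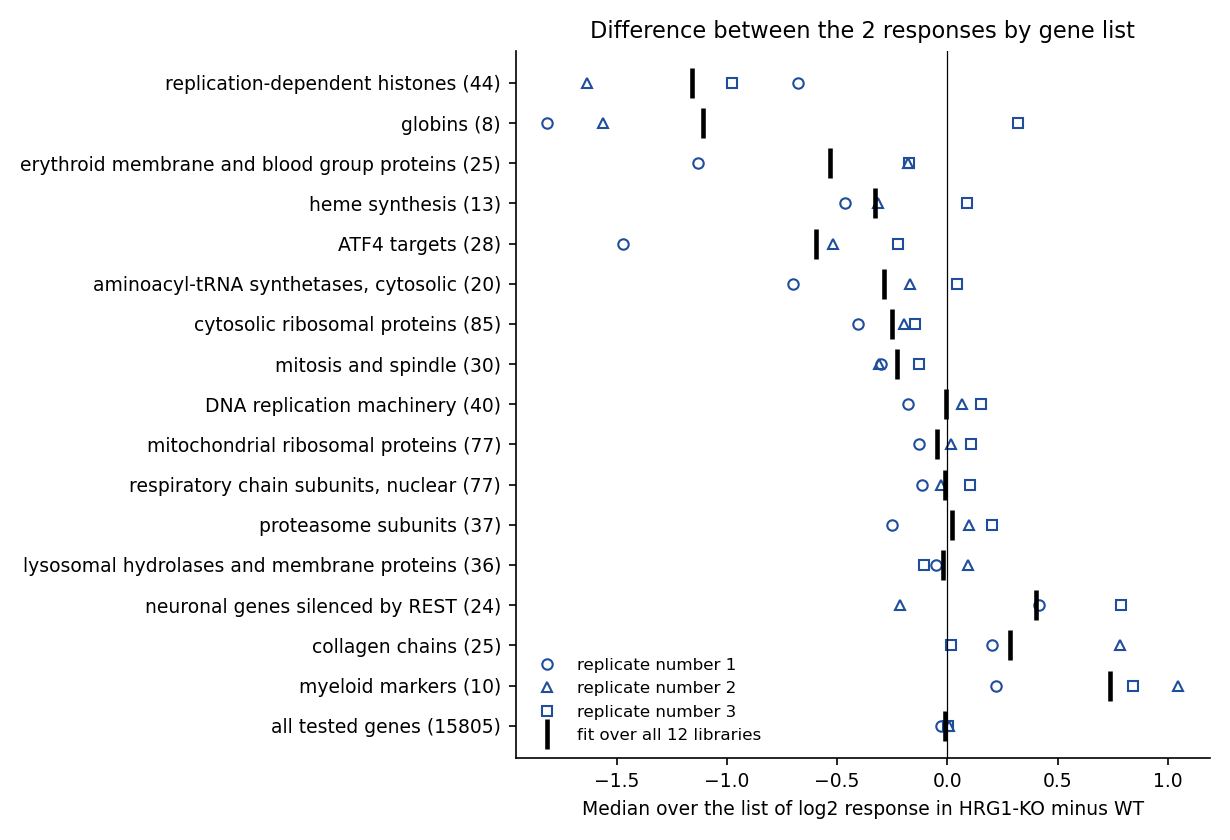
Median interaction (log2 response in HRG1-KO minus WT) over the tested genes of each list, with the number of genes in brackets. Open symbols give replicate numbers 1, 2 and 3 and the bar gives the fit over the 12 libraries; the histone medians are all below 0, while the globin median of number 3 is above 0.

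The ATF4 targets supply amino acids under stress. By edgeR's test 12 of 28 fell in HRG1-KO and 0 in WT, where 3.92% and 3.14% of all genes fell. Without the libraries numbered 1 these counts were 15 and 9. In WT 8 had an unadjusted p under 0.05, and DESeq2 and limma-voom called 1 each. Their median responses were -0.78 in WT and -1.56 in HRG1-KO, so WT members also lay below 0 without passing the test. The difference itself had an unadjusted p under 0.05 in 2 genes, and the median interaction of -0.59 changed to -0.10 without the libraries numbered 1. It was -1.47 in number 1, -0.52 in number 2 and -0.22 in number 3, and leaving out 1 library moved it between -1.37 and 0.10. SLC7A11, the cystine importer, went from 77.7, 158 and 78.5 to 43, 50.7 and 45.6 CPM in WT and from 112, 234 and 148 to 12.7, 7.86 and 45.1 CPM in HRG1-KO. It fell in HRG1-KO (log2 -2.97, adjusted p = 0.00495), and its interaction of -1.82 ± 0.67 had an adjusted p of 0.52. Cytosolic aminoacyl-tRNA synthetases, which include ATF4 targets, gave 8 falls among 20 in HRG1-KO and 1 in WT, with a median interaction of -0.29 that was 0.05 in number 3. Without the libraries numbered 1 there were 8 falls in HRG1-KO and 7 in WT, and the median was -0.07.

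Several smaller groups contained members on both sides. Myeloid markers had a median interaction of 0.74 over 10 genes. LYZ, the secreted enzyme lysozyme, went from 15.6, 11.9 and 15.9 to 17.8, 23.9 and 19.4 CPM in WT and rose from 2.41, 4.14 and 8.83 to 23.1, 24.7 and 24 CPM in HRG1-KO (interaction 1.81 ± 0.47, adjusted p = 0.236). CD68, a lysosomal glycoprotein of macrophages, rose in both (interaction 1.52 ± 0.49), whereas ITGAM, an integrin of the same lineage, rose in WT from 1.04 to 5.49 CPM and had HRG1-KO means of 40.8 and 66.7 CPM (interaction -1.65 ± 0.53). For all 3 the genotype with the lower untreated level had the larger log2 response, and the untreated libraries enter both quantities. Of the BCL2 family, BCL2L11, which promotes apoptosis, rose in WT alone (22.5 to 48.3 CPM, interaction -1.41 ± 0.33), and BOK rose in HRG1-KO alone (0.769 to 5.28 CPM, interaction 2.97 ± 0.89). ACSM3 and ACADS, mitochondrial enzymes that activate and oxidise short-chain fatty acids such as butyrate, had interactions of 1.57 ± 0.37 and 1.08 ± 0.31. ACADS fell in WT from 25, 32.9 and 34.2 to 8.4, 16.5 and 21.6 CPM, and was at 12.4, 15.7 and 28.2 and then 12, 18.2 and 25.6 CPM in HRG1-KO. By edgeR none of the interactions in this paragraph passed the adjusted threshold. DESeq2 called those of LYZ (adjusted p = 0.0275), ACSM3, BCL2L11 and BOK, and not those of CD68 and ITGAM.

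A shared response was defined as passing the test with the same sign in both genotypes and having the 95% interval of the interaction within ±1. It was found for 86 rises (0.544% of tested genes) and 190 falls (1.2%). The interval is the limit here, since its median width over all genes was 1.61, and it was 2.38 for rises and 1.14 for falls called in both. The count of 276 fell to between 52 and 158 without any 1 of 9 libraries, namely numbers 2 and 3 of each group and number 1 of treated HRG1-KO. It was 40 without the replicate block.

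The shared rises with the largest smaller response were MUC4, SCPEP1, ALOX5, GSN, DNM1, HOXC12, CDH24 and TSC22D1. GSN, the actin-severing protein gelsolin, went from 15.8, 19.3 and 30.9 to 44.6, 118 and 90 CPM in WT and from 14.1, 16 and 24.7 to 36, 114 and 96.6 CPM in HRG1-KO. Its 2 responses, 1.88 and 2.06, rose and fell together across the numbers. CDH24, a cadherin, showed the least spread. Its per-number log2 responses were 1.65, 1.47 and 1.51 in WT and 1.58, 1.56 and 1.56 in HRG1-KO. MUC4, a membrane mucin, started from different levels, at a mean of 6.54 CPM in WT and 71.9 CPM in HRG1-KO, and rose by 2.19 and 2.31 on the log2 scale. TSC22D1, a leucine zipper protein, likewise had untreated means of 22.4 and 81.2 CPM and responses of 1.52 and 1.71. ALOX5, the 5-lipoxygenase of leukotriene synthesis, rose by 1.95 and 1.90.

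The shared falls were led by LEPR, NQO1, DMAC1, DTX3L, MGST1 and CYP51A1. LEPR, the leptin receptor, went from 63, 68 and 62.4 to 22.8, 15.5 and 16.2 CPM in WT and from 128, 121 and 128 to 28.9, 39.2 and 39.9 CPM in HRG1-KO. The untreated knockout was above untreated WT in every library, and the log2 responses were -1.83 and -1.80. NQO1, a quinone reductase, went from 102, 42.5 and 42.5 to 32.7, 13.9 and 12.9 CPM in WT and from 81.6, 43.6 and 31.3 to 27.3, 10.3 and 11.9 CPM in HRG1-KO. Number 1 was the highest in each of the 4 groups, and the responses were -1.66 and -1.69, with an interaction interval of -0.55 to 0.49. MGST1, a microsomal glutathione transferase, fell by 1.29 and 1.45, and CYP51A1, a sterol synthesis enzyme, by 1.30 and 1.22.

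**Figure D5:**
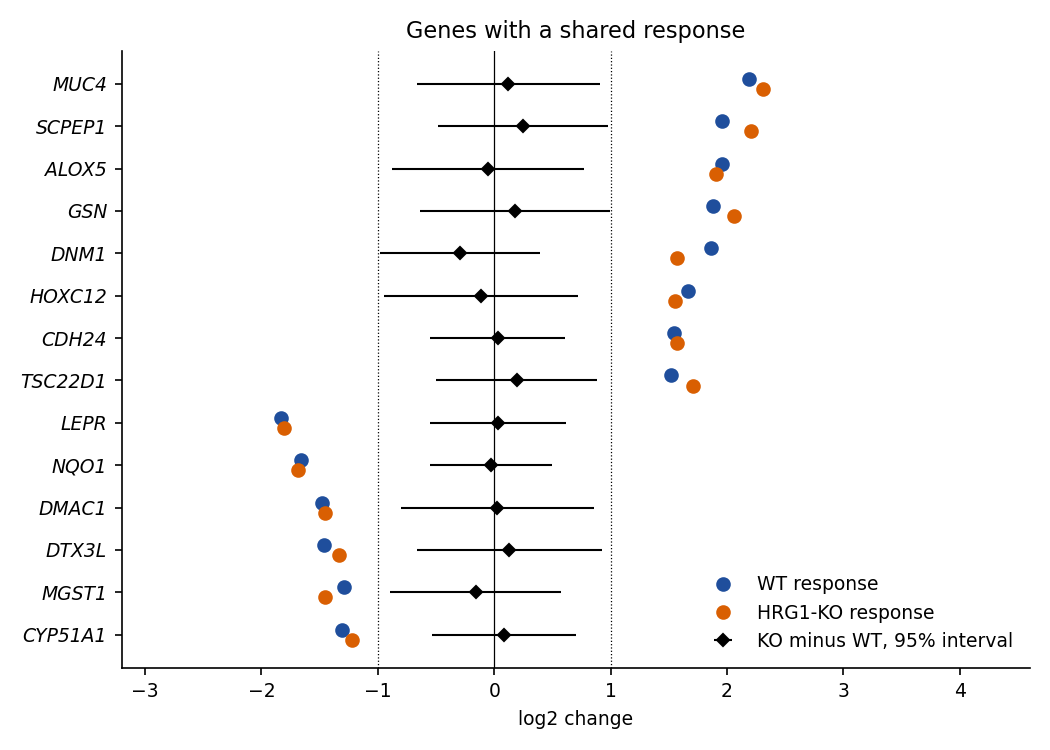
For the 8 rises and 6 falls with the largest shared responses, circles give the log2 response in WT and HRG1-KO and diamonds the interaction with its 95% interval, dotted lines marking -1 and 1. All 14 intervals lie between the dotted lines, as the definition requires.

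Lists of mitochondrial and lysosomal genes held several shared changes. Mitochondrial ribosomal proteins gave 12 falls in WT and 11 falls and 1 rise in HRG1-KO of 77, with medians of -0.34 and -0.37. Their interaction interval lay within ±1 for 70, and 5 were shared falls. Over all genes 3.14% fell in WT and 3.92% in HRG1-KO, and 1.2% were shared falls. The interval lay within ±1 for 41.4% of all genes, a share that also depends on interval width. Nuclear-encoded respiratory chain subunits gave 8 and 9 falls of 77 (7 and 4 without the libraries numbered 1), with 70 intervals within ±1 and 4 shared falls. For 34 of 37 proteasome subunits the interval also lay within ±1, with a median interaction of 0.02. Lysosomal genes had 5 rises in each genotype of 36, and CTSB, a cathepsin, and PSAP, the precursor of saposins, were among 3 shared rises. Over all genes 5.47% rose in WT and 7.8% in HRG1-KO, and 0.544% were shared rises. CTSB went from a mean of 206 to 492 CPM in WT and from 152 to 312 CPM in HRG1-KO. Cytosolic ribosomal proteins had a small difference in 1 direction, with a median interaction of -0.25 and 77 of 85 below 0. Their per-number responses were apart in that direction for 21 of 85, against 6.4% of all genes. Scaled by library size alone, where the median of all genes shifted to 0.11, that list median was -0.14.

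Large rises of normally silent genes were also found in both genotypes, but their intervals were too wide to class as shared. COL1A1, a fibrillar collagen chain, went from 1.62, 3.29 and 4.24 to 43.2, 108 and 91.4 CPM in WT and from 1.87, 2.71 and 4.65 to 69.6, 154 and 67.3 CPM in HRG1-KO. The log2 responses were 4.70 and 4.98 and the interval of the interaction was -0.66 to 1.23. SNCB, a neuronal synuclein gene, had 0, 0 and 6 counts in untreated WT and 57, 423 and 211 after butyrate, and 5, 2 and 10 counts against 201, 899 and 695 in HRG1-KO. ALPL, the tissue-nonspecific alkaline phosphatase, and ENTPD2, a surface nucleotidase, likewise rose in both from 9 counts or fewer per library. FOS rose in both by 2.58 and 2.97, and THBS1, thrombospondin, by 2.79 and 2.90. Among 24 neuronal genes silenced by REST, 7 rose in WT and 10 in HRG1-KO, against 5.47% and 7.8% of all genes. Of the 24, 6 rose in both, and without the libraries numbered 1 the counts in WT and HRG1-KO were 13 and 13. SYP, synaptophysin, rose in both but further in WT (3.82 to 59.9 CPM against 10.8 to 36.2 CPM, interaction -2.13 ± 0.57, adjusted p = 0.259). Collagen chains gave 5 and 9 rises of 25, 5 of them in both.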

How the data were processed

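The members, gene lists and naming rule were chosen with earlier results of these data known. The authors deposited whole-number counts per gene symbol for 12 libraries, and the unit was read from the values. Per the submitters' processing notes, FastQC 0.12.1 and STAR 2.7.11b were named together with the hg38 build. The counting tool, annotation and use of strand are not given in the sources used here, so overlapping, antisense or near-identical genes can carry each other's reads. Groups and replicate numbers came from the sample titles, and 0 columns were left unused.

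Counts were analysed in R 4.3.3 with edgeR 4.0.16: filterByExpr (minimum count 10), TMM, and a quasi-likelihood fit with a mean per group and the replicate number as an additive block over all 12 libraries (6 residual degrees of freedom, biological coefficient of variation 0.273). Contrasts were the WT response, the HRG1-KO response and their difference, each Benjamini-Hochberg adjusted over 15805 genes at 0.05. Intervals are 95% and SE are from the fit. Per-number responses are differences of log2 CPM (prior count 2) between libraries of the same number. Libraries with the same number deviated together from their group means in 16 of 18 pairs (correlation over 0.1, range -0.003 to 0.595). Among pairs with different numbers this held for 6 of 36. Deviations sum to 0 within a group, so these counts are not independent of each other. Named genes were those called in the interaction, the 10 with the smallest p in each direction among genes with at least 1 CPM in a group and per-number responses apart, the 8 shared rises and 6 shared falls with the largest smaller response and at least 50 counts in the higher group, SLC48A1 and list members. SULT1A1 was named because it is 1 of 3 genes, after its values were seen. Symbols of 96% of tested genes matched RefSeq on GRCh38.p14, the source of coordinates and sequences. Detection was limited to 3 counts. The intervals include the spread between libraries, and the detection limit covers counting error only. The scripts were checked on simulated data. Alternatives used RLE scaling, library size alone, other filters, DESeq2 1.42.0, limma-voom (limma 3.58.1), other blocks and left-out libraries.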

Additional observations from a re-analysis of the deposited data

Results flagged for a closer look

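In all, 3 interactions passed the test of the difference between genotypes and were singled out for that reason. LINC01234 had a log2 response that was 3.19 higher in HRG1-KO than in WT, and CD24 one that was 5.66 higher. ESAM had a value of -4.21, that is, a lower response in HRG1-KO. Each direction held in 3 of 3 replicate numbers. The genes were picked by a test on these same libraries, so that agreement is no independent support.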

How the results depend on the processing

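The number of interaction calls moved with the model. It was 3 as reported, 0 without the replicate block, 12 with a replicate block within genotype, 14 with scaling by library size alone, 98 without a filter on low counts, 1 with at least 10 counts in every library, 211 by DESeq2, 1 by limma-voom and 26 without the libraries numbered 1. Leaving out 1 library gave 2 to 22. WT calls numbered 1361, and 372 without the replicate block, 595 with WT fitted alone, 2384 by DESeq2, 2412 without the libraries numbered 1, and 376 to 2001 with 1 library left out. HRG1-KO calls numbered 1852, and 537 without the replicate block, 1170 with at least 10 counts in every library and 401 to 2456 with 1 library left out. Shared response genes numbered 276, and 40 without the replicate block, 528 by DESeq2, 563 without the libraries numbered 1 and 52 to 404 with 1 library left out. The correlation of the 2 responses was 0.33 without a filter. The cause was not tested. Of 1244 recomputed interactions of the 60 genes named for a difference, 0 changed sign, 100 gained and 12 lost the threshold. For the other 31 named genes, described for their responses, 63 of 644 recomputed interactions changed sign, in 21 genes. The 60 were named for a difference seen in these same libraries, so their stable sign is no independent support. Only the 3 genes called in the main fit could lose the threshold, so the 12 losses are theirs. Depth limits genes near 3 counts, such as CD24 in untreated HRG1-KO.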
